A study of Mus musculus with 9 samples.

Results

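The genes described here are 10 neurotrophic factors and receptors of the mouse brain: the ligands Bdnf and Gdnf, the receptors Ntrk2, Ntrk3, Ngfr, Ret, Gfra1 and Gfra2, and the endoplasmic reticulum proteins Cdnf and Manf. They were chosen by name from the deposited table, which held 28991 genes, and all 10 were found and were among the 17285 genes tested. Whole-tissue RNA was sequenced from 9 C57BL/6 mice, 3 in each group, and the tissue was labelled mesencephalon (midbrain). The MPTP+PF4 mice received MPTP intraperitoneally for 7 days and PF4 intravenously every 3 days. The MPTP mice received the same toxin without PF4, and the control mice received saline. MPTP, once oxidised in glia, is taken up by dopamine-producing cells and poisons their mitochondria, which has made it a standard mouse model of Parkinson's disease. PF4 is a small chemokine stored in platelet granules. The comparisons ask what the toxin did to these transcripts, and whether PF4 altered what was seen under the toxin.

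Neurotrophins are secreted proteins that act through Trk receptor tyrosine kinases and through the shared low-affinity receptor p75. GDNF and its relatives bind a membrane-anchored GFRα co-receptor, and the complex activates the receptor tyrosine kinase RET. Both systems have been studied for the survival of dopaminergic neurons; in rodents GDNF is made in the striatum, the target of these neurons, whereas RET and GFRα1 are made by the neurons themselves. CDNF and MANF form a separate family of mostly intracellular proteins of the endoplasmic reticulum that can also be secreted.

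The libraries held 32216850 to 36039211 counts, and 16303 to 16889 genes had at least 10 counts. Levels between libraries are given as CPM, counts scaled to a common library size, on which 3 counts, taken as the floor of detection in 1 library, were 0.0832 to 0.0931 CPM; this covers counting error only. Before the genes are described, the libraries need to be set apart. The 8 dopaminergic neuron markers checked against the midbrain label (Th, Slc6a3, Slc18a2, Ddc, Aldh1a1, En1, Pitx3 and Foxa1) summed to 127, 519 and 112 CPM in MPTP+PF4 1 to 3, to 82.3, 109 and 94.3 CPM in MPTP 1 to 3, and to 116, 1649.8 and 1500.0 CPM in controls 1 to 3. En1, Pitx3 and Foxa1, transcription factors of midbrain dopaminergic neurons, were each at 0 to 0.1825 CPM in all libraries but MPTP+PF4 2, control 2 and control 3, and all 3 were at 0 in MPTP+PF4 1 and 3. Markers of striatal projection neurons ran high where these were low: the 9 genes summed to 5664.0, 332 and 8304.5 CPM in the MPTP+PF4 libraries, to 4069.9, 1041.3 and 8461.9 CPM in the MPTP libraries, and to 3931.5, 246 and 210 CPM in the controls. MPTP+PF4 2 and control 1 thus each stood apart from the other libraries of their groups. The midbrain label is thus not borne out by these 3 genes in MPTP+PF4 1 and 3, MPTP 1 to 3 and control 1, the last from a mouse that received no toxin. In the toxin-treated libraries these 3 genes alone cannot tell loss of dopaminergic neurons from another region sampled. Whether other brain regions were sampled or libraries were exchanged was not tested. The 6 mature oligodendrocyte markers summed to 11835.9 to 12841.0 CPM with MPTP+PF4, to 6640.1 to 14001.5 CPM with MPTP and to 14502.2 to 24534.2 CPM in controls. In bulk tissue, fewer cells of a type and less RNA per cell cannot be told apart.

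No member passed the threshold, an adjusted p under 0.05 by edgeR, in any of the 3 comparisons, and neither did any other gene: 0% of the 17285 genes tested were called in each. At an unadjusted p under 0.05, edgeR gave 2 of the 10 members for MPTP over control (Ntrk2 and Ntrk3) beside 18.2% of all genes, 0 members for MPTP+PF4 over MPTP beside 2.01%, and 2 for MPTP+PF4 over control (Ntrk3 and Cdnf) beside 18.3%. DESeq2 called 0 members in each comparison and gave no p for Ret, where it called 1.67%, 0.0891% and 0.038% of the genes it gave an adjusted p. The 3 MPTP libraries did not overlap the 3 controls for Ntrk2, Ntrk3 and Cdnf, all higher with MPTP, beside 18.2% of all genes (9% higher, 9.19% lower). Between MPTP+PF4 and MPTP 0 members were free of overlap, beside 7.12% of all genes (3.04% higher, 4.07% lower). Between MPTP+PF4 and control Cdnf alone did not overlap, higher with MPTP+PF4, beside 12.4% of all genes (5.62% higher, 6.77% lower). For MPTP over control, 2 of 10 at an unadjusted p under 0.05 is near the share among all genes, and the list is too short for the 3 of 10 without overlap to be called particular to it. The median log2 fold change of the 10 members was 0.34 for MPTP over control, −0.05 for MPTP+PF4 over MPTP and 0.19 for MPTP+PF4 over control, where all genes tested had medians of 0.013, 0.016 and −0.004. The comparisons share libraries, so their values are not independent of each other.

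**Figure D1:**
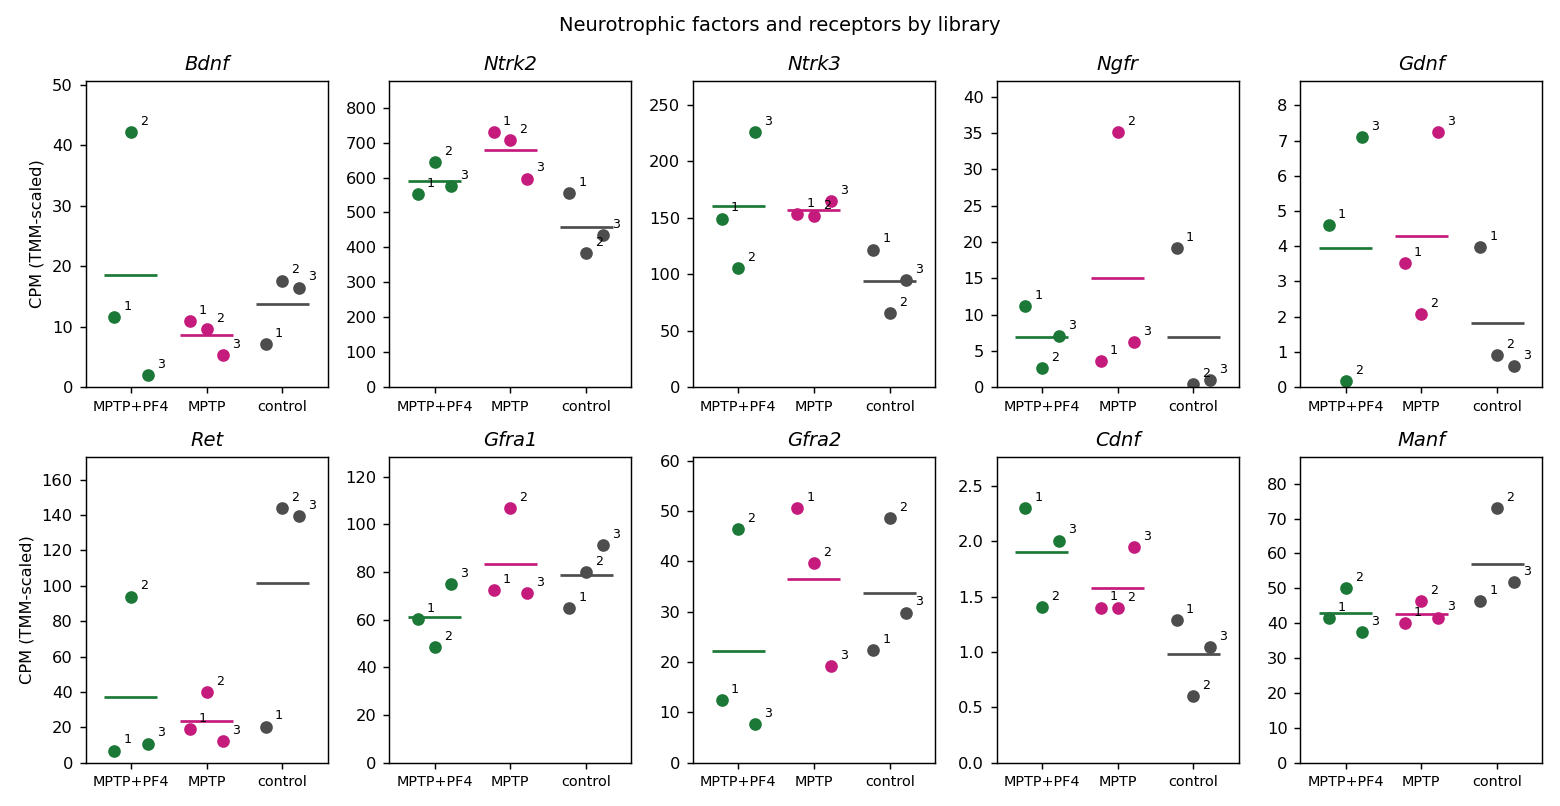
Level of each of the 10 genes in every library, in CPM of TMM-scaled totals; points are libraries with their replicate numbers, from left to right MPTP+PF4, MPTP and control, and lines are group means. Ntrk2 sits in a narrow range, and for Ntrk2 and Ntrk3 all 3 MPTP points lie above the controls. MPTP+PF4 2 stands highest for Bdnf and MPTP 2 for Ngfr. MPTP+PF4 2, control 2 and control 3 stand high for Ret and low for Gdnf.

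Bdnf, the ligand of TrkB, is released by neurons and is transcribed in response to activity. On chromosome 2 (109674700 to 109727007, plus strand, GRCm38) it has 11 annotated transcripts that begin at several starts, and the gene counts add them together. It had 11.55, 42.2 and 1.97 CPM in MPTP+PF4 1 to 3, against 10.9, 9.60 and 5.35 CPM in MPTP 1 to 3 and 7.12, 17.6 and 16.45 CPM in controls 1 to 3. The MPTP+PF4 group held both the highest and the lowest library of all 9 and spanned both other groups. The log2 fold change of MPTP+PF4 over MPTP was 1.11 (SE 0.856, adjusted p = 1 by edgeR), and without MPTP+PF4 2 it was −0.35. For MPTP+PF4 over control it was 0.44 (SE 0.846, adjusted p = 0.768 by edgeR), and −1.02 without MPTP+PF4 2. MPTP over control gave −0.67 (SE 0.851, adjusted p = 0.633 by edgeR).

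Markers of cortical and hippocampal glutamatergic neurons, cells that are known to make Bdnf, were set beside it. The 6 markers summed to 393, 351 and 42.3 CPM in MPTP+PF4 1 to 3, to 429, 37.45 and 221 CPM in MPTP 1 to 3, and to 128, 194 and 591 CPM in controls 1 to 3; none was at 0 in any library. The lowest Bdnf library, MPTP+PF4 3, was the second lowest in this sum, whereas the highest, MPTP+PF4 2, had 3 libraries above it; their part in the Bdnf levels was not tested. MPTP+PF4 2 also held 62.7 CPM of the hypothalamic peptide gene Hcrt, against 0 to 2.52 CPM in the other libraries. The genes with the most similar profiles over the 9 libraries were Nrn1 and Fam19a1, with root mean square differences of 0.366 and 0.389 on the centred log2 CPM scale, and Bdnf's own deviation from its mean was 1.15.

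Because Bdnf and Gdnf are the ligands of the receptors described here and Bdnf is a known target of activity-dependent transcription, their start regions were searched for the core of the cAMP response element, TGACG, or CGTCA on the other strand. RefSeq windows of 300 bases (250 before and 50 after a start, GRCm38.p6) were at hand for 6 of the 10 members, 13 windows in all, of which 7 belong to Bdnf and 2 to Gdnf. A match was found in 3 of the 13, 1 each for Bdnf, Gdnf and Cdnf, and in 20.8% of all 32851 windows. The 250 bases before the start are shown for the matching Bdnf and Gdnf windows, 5′ to 3′, with the match in capitals; it begins 35 bases before the start in Bdnf and 50 in Gdnf. Both lie on the plus strand, at chr2:109692186-109692435 for Bdnf and chr15:7809798-7810047 for Gdnf. A match is a string of letters and not evidence of binding, and the gene counts do not tell which Bdnf start was used.
Bdnf: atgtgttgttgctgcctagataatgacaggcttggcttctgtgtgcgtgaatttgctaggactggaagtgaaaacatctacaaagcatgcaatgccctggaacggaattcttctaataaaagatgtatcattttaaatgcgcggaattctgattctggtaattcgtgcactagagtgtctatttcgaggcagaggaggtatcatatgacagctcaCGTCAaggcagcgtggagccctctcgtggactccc
Gdnf: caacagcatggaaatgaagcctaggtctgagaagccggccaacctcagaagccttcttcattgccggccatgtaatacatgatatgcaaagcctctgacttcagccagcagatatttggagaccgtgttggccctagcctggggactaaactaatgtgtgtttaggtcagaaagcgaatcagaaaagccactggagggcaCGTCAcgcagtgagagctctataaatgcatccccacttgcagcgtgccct

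Gdnf, the founding ligand of the RET pathway, was low throughout, and its levels rest on 6 to 238 counts. The gene lies on chromosome 15 (7810846 to 7837575, plus strand). It had 4.61, 0.172 and 7.09 CPM in MPTP+PF4 1 to 3, against 3.52, 2.08 and 7.24 CPM in MPTP 1 to 3 and 3.98, 0.904 and 0.606 CPM in controls 1 to 3. The low libraries were MPTP+PF4 2, with 6 counts, and controls 2 and 3, and the groups overlapped in every comparison. In log2 terms the fold change was 1.22 (SE 1.10) for MPTP over control, −0.11 (SE 1.08) for MPTP+PF4 over MPTP and 1.11 (SE 1.10) for MPTP+PF4 over control, with adjusted p of 0.502, 1 and 0.546 by edgeR. Single libraries moved these values: MPTP over control was 0.61 without MPTP 3 and 2.51 without control 1, and MPTP+PF4 over control was 0.39 without MPTP+PF4 3 and 2.39 without control 1.

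The 3 libraries low in Gdnf were the 3 lowest in the summed striatal markers given above, and no striatal marker was at 0 in any library. All 9 of these markers had positive log2 fold changes for MPTP over control, with a median of 1.57, and for MPTP+PF4 over control, with a median of 1.56; none passed the threshold. Without MPTP+PF4 2, control 2 and control 3, the Gdnf value was 0.10 (SE 0.688) for MPTP over control and 0.45 (SE 0.535) for MPTP+PF4 over MPTP, and adjusted p by edgeR was 1 and 0.864. Those are the 3 libraries lowest in Gdnf and leave 1 control, so their omission is no test of regional cell content, whose part in the Gdnf levels was not tested. Wnt2 and Rem2 had the most similar profiles, with root mean square differences of 0.392 and 0.412 against Gdnf's own 1.61.

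Ret, the signalling receptor of the GDNF family, lies on chromosome 6 (118151745 to 118197718, minus strand) and differed 20.8-fold between the highest and the lowest library. It had 6.94, 93.9 and 10.9 CPM in MPTP+PF4 1 to 3, against 19.0, 40.15 and 12.2 CPM in MPTP 1 to 3 and 20.5, 144 and 139 CPM in controls 1 to 3. Controls 2 and 3 and MPTP+PF4 2 were the 3 high libraries, MPTP 2 came next, and control 1 lay among the MPTP libraries. The log2 fold change of MPTP over control was −2.09 (SE 1.06, adjusted p = 0.296 by edgeR), the largest in size among the members. DESeq2 gave no p for it. The authors' deposited table calls Ret down with MPTP against control, their only call among the 10 genes, where it calls 7.96% of the genes with a call. For MPTP+PF4 over MPTP and over control it calls none of the 10, beside 1.41% and 6.42% of genes. The authors' calls are labelled with a P value and a fold change cut, and no adjusted p is named. Their Ret call is therefore not on the scale of the adjusted p used here. MPTP+PF4 over MPTP gave 0.65 (SE 1.02, adjusted p = 1 by edgeR) and MPTP+PF4 over control −1.44 (SE 1.04, adjusted p = 0.413 by edgeR). Without MPTP+PF4 2 the value for MPTP+PF4 over control was −3.50 (SE 0.906, adjusted p = 0.212 by edgeR).

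The same 3 libraries were the highest in the summed dopaminergic markers. The sums lay between 112 and 519 CPM with MPTP+PF4, between 82.3 and 109 CPM with MPTP and between 116 and 1649.8 CPM in controls. All 8 markers had negative log2 fold changes for MPTP over control (median −4.63) and positive ones for MPTP+PF4 over MPTP (median 1.47), and none passed the threshold. Within the MPTP+PF4 group all 8 were highest in MPTP+PF4 2. Slc6a3 had 0.338, 101.7 and 0.402 CPM and Th 4.95, 51.7 and 7.09 CPM in MPTP+PF4 1 to 3. The positive values thus rest largely on 1 library, though Aldh1a1 lay above every MPTP library in each MPTP+PF4 library. Ret did not follow the marker sum in every library: MPTP 2 had more Ret than control 1, with a sum just below that control's. Th (18.1 against 7.48 CPM), Slc6a3 (0.957 against 0.392), Slc18a2 (21.9 against 14.6) and Ddc (25.85 against 16.2) were, like Ret, higher in MPTP 2. Aldh1a1 was lower there, at 42.0 against 77.0 CPM, and En1, Pitx3 and Foxa1 were near the floor in both. Without MPTP+PF4 2, control 2 and control 3, the Ret value was 0.21 (SE 0.667) for MPTP over control, and without MPTP+PF4 2 alone it was −1.41 for MPTP+PF4 over MPTP. The 3 are also the libraries highest in Ret, so the choice of omission itself bears on the first value. Whether the toxin or the region sampled set the Ret level cannot be told apart, since the dopaminergic markers and the regional markers move together in these libraries. The most similar profiles were those of Neurog2 and Adam33, with root mean square differences of 0.335 and 0.435 against Ret's own 1.56.

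Gfra1, the co-receptor that binds GDNF, was far steadier than its ligand or its signalling partner. It lies on chromosome 19 (58235604 to 58455909, minus strand). It had 60.2, 48.6 and 75.05 CPM in MPTP+PF4 1 to 3, against 72.5, 107.0 and 71.1 CPM in MPTP 1 to 3 and 65.0, 80.0 and 91.3 CPM in controls 1 to 3. The lowest library was MPTP+PF4 2 and the highest MPTP 2, and all groups overlapped. Its log2 fold change was −0.45 (SE 0.234) for MPTP+PF4 over MPTP, 0.08 (SE 0.234) for MPTP over control and −0.36 (SE 0.234) for MPTP+PF4 over control, with adjusted p of 1, 0.836 and 0.370 by edgeR. MPTP+PF4 2, high in Ret, was thus the lowest library in Gfra1.

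Gfra2, the co-receptor for neurturin, lies on chromosome 14 (70890120 to 70979838, plus strand). It had 12.4, 46.5 and 7.73 CPM in MPTP+PF4 1 to 3, against 50.7, 39.6 and 19.1 CPM in MPTP 1 to 3 and 22.4, 48.6 and 29.8 CPM in controls 1 to 3. MPTP+PF4 1 and 3 were the 2 lowest libraries of all 9, whereas MPTP+PF4 2 was among the 3 highest. The log2 fold change of MPTP+PF4 over MPTP was −0.72 (SE 0.649, adjusted p = 1 by edgeR) with all libraries and −1.86 without MPTP+PF4 2. MPTP+PF4 over control gave −0.60 (SE 0.648, adjusted p = 0.579 by edgeR) with all libraries and −1.74 (SE 0.493, adjusted p = 0.212 by edgeR) without MPTP+PF4 2. The value was −0.20 without MPTP+PF4 3. MPTP over control gave 0.12 (SE 0.645, adjusted p = 0.920 by edgeR).

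Ntrk2 encodes TrkB, the receptor of BDNF; neurons make its kinase form, and astrocytes make mainly a truncated form without the kinase. The gene lies on chromosome 13 (58806569 to 59133970, plus strand), and the gene counts do not separate the forms. It had 552, 645 and 575 CPM in MPTP+PF4 1 to 3, against 730.2, 706 and 597 CPM in MPTP 1 to 3 and 556, 383 and 436 CPM in controls 1 to 3. All 3 MPTP libraries lay above all 3 controls, and control 1 lay just above the lowest MPTP+PF4 library. Its log2 fold change was 0.56 (SE 0.186, unadjusted p = 0.0144, adjusted p = 0.261 by edgeR) for MPTP over control, 0.37 (SE 0.186, adjusted p = 0.293 by edgeR) for MPTP+PF4 over control and −0.20 (SE 0.186, adjusted p = 1 by edgeR) for MPTP+PF4 over MPTP.

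Astrocyte markers were set beside it. The 6 genes summed to 2930.8 to 3852.7 CPM with MPTP+PF4, to 2442.1 to 3817.7 CPM with MPTP and to 1874.5 to 2846.8 CPM in controls; none was at 0 in any library. The members of that list did not move as one: 2 of 6 had positive log2 fold changes for MPTP over control. Their part in the Ntrk2 levels was not tested. Without MPTP+PF4 2, control 2 and control 3 the Ntrk2 value for MPTP over control was 0.28 (SE 0.224, adjusted p = 1 by edgeR).

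Ntrk3 encodes TrkC, the receptor of neurotrophin-3, and also has truncated forms that gene counts do not separate. It lies on chromosome 7 (78175959 to 78738012, minus strand). It had 149, 106 and 226 CPM in MPTP+PF4 1 to 3, against 153, 151 and 164 CPM in MPTP 1 to 3 and 122, 65.3 and 94.4 CPM in controls 1 to 3. The 3 MPTP libraries were nearly equal and lay above all controls, whereas the MPTP+PF4 libraries spread more widely and MPTP+PF4 2 lay among the controls. Its log2 fold change was 0.74 (SE 0.302, unadjusted p = 0.0378, adjusted p = 0.265 by edgeR) for MPTP over control and 0.77 (SE 0.302, unadjusted p = 0.0314, adjusted p = 0.268 by edgeR) for MPTP+PF4 over control. For MPTP+PF4 over MPTP it was 0.03 (SE 0.300, adjusted p = 1 by edgeR). Control 2, control 3 and MPTP+PF4 2 were the 3 lowest libraries in Ntrk3. Without them control 1 was the only control. The log2 fold change of Ntrk3 was then 0.36 for MPTP over control and 0.62 for MPTP+PF4 over control. The part of regional cell content in the Ntrk3 levels was not tested. The closest profiles were those of Lrch2 and Jade3, with root mean square differences of 0.0704 and 0.0895 against Ntrk3's own 0.493.

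Ngfr encodes p75, which binds all neurotrophins and their precursors; in the adult rodent brain it is best known from cholinergic neurons of the basal forebrain. It lies on chromosome 11 (95568818 to 95587735, minus strand) and had the widest spread of the 10 genes, 83.4-fold between the highest and the lowest library. It had 11.1, 2.61 and 7.06 CPM in MPTP+PF4 1 to 3, against 3.63, 35.15 and 6.18 CPM in MPTP 1 to 3 and 19.2, 0.422 and 0.964 CPM in controls 1 to 3. MPTP 2 and control 1 were the 2 highest libraries, and controls 2 and 3, with 14 and 35 counts, were the lowest. On the log2 scale the fold change was 1.13 (SE 1.33) for MPTP over control, −1.11 (SE 1.33) for MPTP+PF4 over MPTP and 0.01 (SE 1.32) for MPTP+PF4 over control, with adjusted p of 0.605, 1 and 0.996 by edgeR. Without MPTP 2 the value for MPTP over control was −0.48, and without control 1 it was 4.42 for MPTP over control and 3.32 for MPTP+PF4 over control.

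The 5 cholinergic markers (Chat, Slc18a3, Slc5a7, Lhx8 and Isl1) summed to 127, 7.53 and 174 CPM in MPTP+PF4 1 to 3, to 61.65, 167 and 117 CPM in MPTP 1 to 3, and to 124, 2.62 and 1.85 CPM in controls 1 to 3. MPTP+PF4 2, control 2 and control 3 were the lowest 3 libraries in this sum and in Ngfr, and Lhx8, a transcription factor of forebrain cholinergic neurons, was at 0 in controls 2 and 3. All 5 markers had positive log2 fold changes for MPTP over control, with a median of 1.43, and none passed the threshold. Their part in the Ngfr levels was not tested. Lhx6, another forebrain transcription factor, had the profile most similar to Ngfr, with a root mean square difference of 0.702 against Ngfr's own 1.86.

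**Figure D2:**
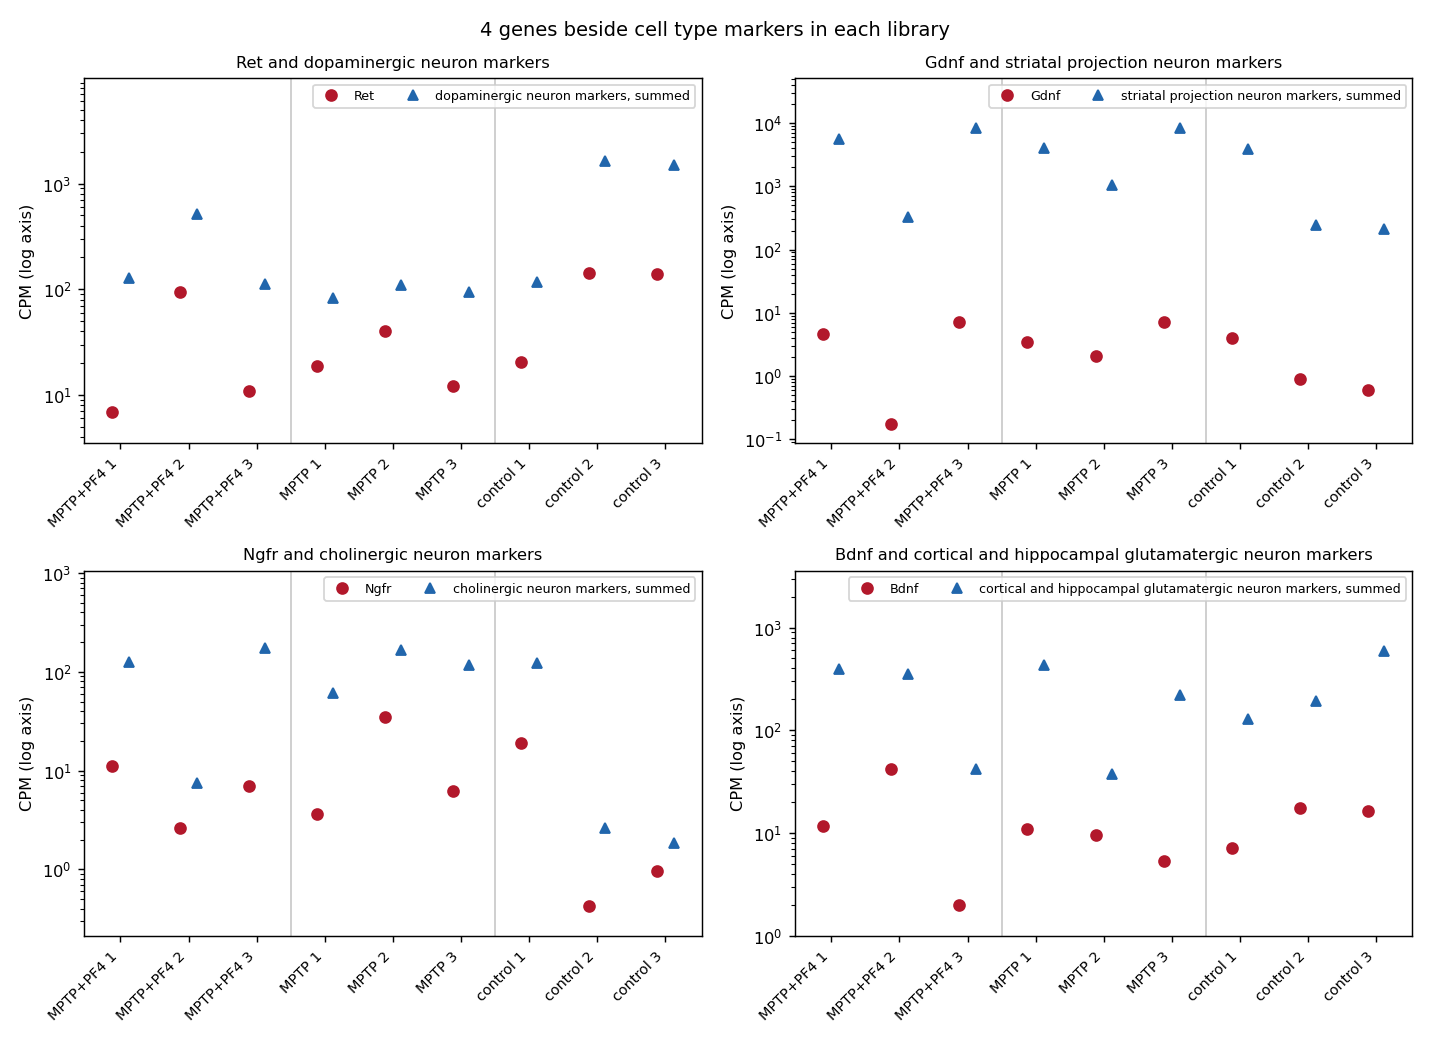
Level of Ret, Gdnf, Ngfr and Bdnf (circles) and the summed level of a set of cell type markers (triangles) in each library, in CPM on a log axis; grey lines separate MPTP+PF4, MPTP and control. MPTP+PF4 2, control 2 and control 3 are the 3 highest libraries for Ret and for the dopaminergic sum, and the 3 lowest for Gdnf and the striatal sum and for Ngfr and the cholinergic sum; Bdnf and the cortical sum share no such order.

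Cdnf, cerebral dopamine neurotrophic factor, was the least abundant member per length and rests on 20 to 75 counts. It lies on chromosome 2 (3513030 to 3526376, plus strand). It had 2.30, 1.40 and 2.01 CPM in MPTP+PF4 1 to 3, against 1.40, 1.395 and 1.95 CPM in MPTP 1 to 3 and 1.29, 0.602 and 1.05 CPM in controls 1 to 3. All 6 libraries from mice given MPTP lay above all 3 controls, the nearest being MPTP 2 at 1.395 CPM (51 counts) and control 1 at 1.29 CPM (46 counts). By edgeR the log2 fold change was 0.96 (SE 0.393, unadjusted p = 0.0384, adjusted p = 0.268 by edgeR) for MPTP+PF4 over control, 0.69 (SE 0.393, adjusted p = 0.327 by edgeR) for MPTP over control and 0.27 (SE 0.388, adjusted p = 1 by edgeR) for MPTP+PF4 over MPTP. Without control 2 the value was 0.44 for MPTP over control and 0.71 for MPTP+PF4 over control. Without control 2, control 3 and MPTP+PF4 2, with control 1 the only control, it was 0.29 and 0.74. Among the members the Cdnf profile was closest to that of Ntrk3, with a root mean square difference of 0.252, the smallest of any pair of members.

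Manf, its paralogue, is induced when unfolded proteins collect in the endoplasmic reticulum. It lies on chromosome 9 (106838312 to 106891979, minus strand). It had 41.5, 50.1 and 37.4 CPM in MPTP+PF4 1 to 3, against 40.1, 46.3 and 41.6 CPM in MPTP 1 to 3 and 46.2, 73.1 and 51.8 CPM in controls 1 to 3. Control 2 was the highest library, and control 1 lay within the range of the MPTP libraries. The log2 fold change was −0.42 (SE 0.203) for MPTP over control, −0.41 (SE 0.203) for MPTP+PF4 over control and 0.01 (SE 0.203) for MPTP+PF4 over MPTP, with adjusted p of 0.288, 0.289 and 1 by edgeR. Without control 2 the first was −0.20 and the second −0.18.

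Compared per transcript length, as FPKM deposited by the authors, the 10 genes spanned a wide range of levels. Ntrk2 was highest, at 75.7 ± 16.7 FPKM (SD, n = 9), and its lowest library, at 51.03 FPKM, lay above the highest library of the next gene, Manf, at 31.8 FPKM. Manf averaged 21.3 ± 4.69 FPKM, Gfra1 15.9 ± 4.09 FPKM and Ntrk3 15.2 ± 3.68 FPKM; these 3 overlapped, and Gfra1 was above Ntrk3 in 4 of 9 libraries. Ret averaged 10.3 ± 10.6 FPKM, an SD as large as its mean, and Gfra2 8.62 ± 4.68 FPKM; Ret was above Gfra2 in 3 of 9 libraries. Bdnf at 3.23 ± 2.84 FPKM and Ngfr at 2.74 ± 3.37 FPKM overlapped, with Bdnf above Ngfr in 4 of 9. Gdnf at 0.858 ± 0.658 FPKM and Cdnf at 0.467 ± 0.157 FPKM were lowest, with Gdnf above Cdnf in 7 of 9. Only Ntrk2 had a range that did not overlap that of its neighbour in this order. FPKM depends on the transcript length the authors used, which for genes with several forms, such as Ntrk2 and Ntrk3, need not be that of the form expressed.

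**Figure D3:**
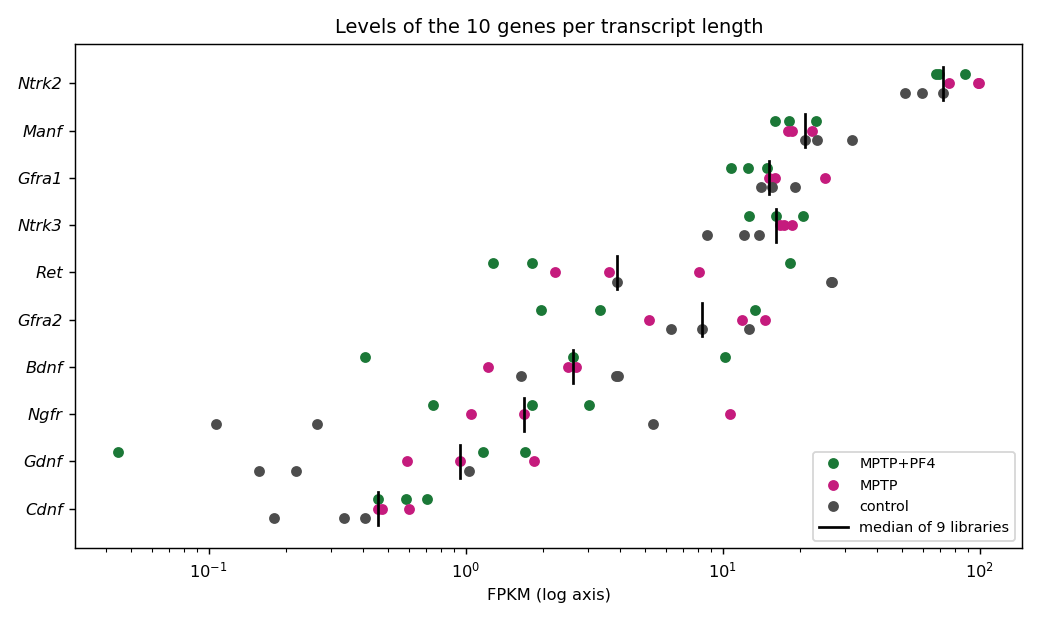
Length-scaled level (FPKM, log axis) of the 10 genes in each library, ordered by their mean over 9 libraries; colours mark MPTP+PF4, MPTP and control, and black lines are medians. Ntrk2 lies between 51.03 and 99.7 FPKM, clear of all other genes, while Ngfr, Gdnf, Bdnf and Ret spread widest.

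The members' profiles over the 9 libraries lay close for some pairs and far apart for others. As root mean square differences of centred log2 CPM, the smallest were between Ntrk3 and Cdnf (0.252) and between Ntrk2 and Ntrk3 (0.362). The largest were between Ngfr and Ret (3.12) and between Gdnf and Ret (3.07). Ngfr, Gdnf and Ret also had the largest deviations from their own means, 1.86, 1.61 and 1.56, and the measure grows with such spread. Ntrk2's own deviation from its mean was 0.287, below its difference from Ntrk3, so the value of 0.362 does not show a shared profile. The highest library had 42.1 times the CPM of the lowest for Gdnf, 21.4 times for Bdnf and 20.8 times for Ret, and 6.56 times for Gfra2 and 3.83 times for Cdnf. For Ntrk3 the ratio was 3.46, for Gfra1 2.20, for Manf 1.96 and for Ntrk2 1.91. Within the controls alone Ngfr ranged over 45.5-fold and Ret over 7.04-fold. Outside the members, the profile nearest to that of Ntrk2 was Prrc1 (0.0783), to Gfra1 Ttll3 (0.162), to Gfra2 Fhad1 (0.303), to Cdnf Mbd4 (0.147) and to Manf Idh3g (0.0519), by the same measure. The ligand Gdnf and its receptor Ret were opposite in their high libraries: Ret was highest in MPTP+PF4 2, control 2 and control 3, where Gdnf was lowest.

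Leaving out MPTP+PF4 2 and control 1, a choice made with earlier results of these data known, set MPTP+PF4 and MPTP libraries with lower dopaminergic and higher striatal marker sums against controls 2 and 3; these calls are therefore no independent support. By edgeR, 5 members then passed for MPTP over control, where 32% of all genes tested did. Ngfr (log2 fold change 4.46, SE 1.19), Gdnf (2.53, SE 0.596), Ntrk3 (1.00, SE 0.235) and Ntrk2 (0.76, SE 0.172) were higher with MPTP and Ret (−2.54, SE 0.472) lower, with adjusted p of 0.0118 to 0.0321. For MPTP+PF4 over control 6 members passed, beside 34% of all genes. Gdnf (2.97), Cdnf (1.40) and Ntrk3 (1.25) were higher and Ret (−3.98), Gfra2 (−1.94) and Manf (−0.64) lower with MPTP+PF4, with adjusted p of 0.00847 to 0.0481 by edgeR. For MPTP+PF4 over MPTP 0 members passed, beside 0% of all genes. Treatment and regional markers cannot be told apart among those 7 libraries.

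Without control 1 alone, Ngfr (4.42) and Ntrk2 (0.73) passed for MPTP over control, beside 25.8% of all genes, and Ntrk2 (0.53) passed for MPTP+PF4 over control, beside 25.6%, with adjusted p of 0.0374, 0.0177 and 0.0438 by edgeR. Without MPTP+PF4 2 alone, 0 members passed in any comparison, beside 0% of all genes. With the libraries of high dopaminergic sum left out instead (MPTP+PF4 2, control 2 and control 3), control 1 was the only control, and its spread was taken to be that of the other groups. Then 0 members passed in any comparison by edgeR, beside 0.00556% of all genes for MPTP over control and for MPTP+PF4 over control and 0% for MPTP+PF4 over MPTP. MPTP over control gave values between −0.36 (Ngfr) and 0.70 (Gfra2) in that fit.

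**Figure D4:**
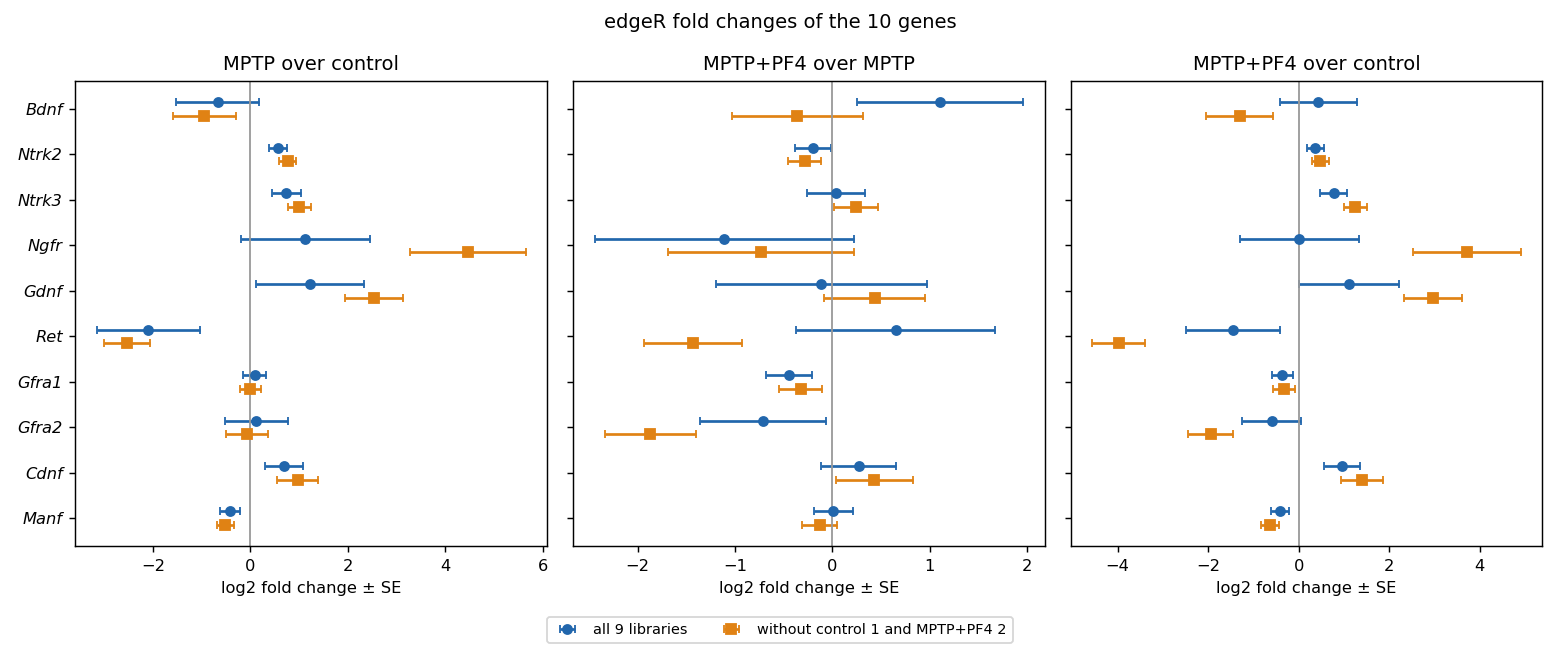
Log2 fold change of the 10 genes by edgeR in the 3 comparisons, with all 9 libraries (circles) and without control 1 and MPTP+PF4 2 (squares); bars are ±1 SE, and the horizontal axes differ between panels. For MPTP over control, Ngfr stands at 1.13 with all libraries and 4.46 without the 2, and for MPTP+PF4 over MPTP Bdnf stands at 1.11 and −0.36 and Ret at 0.65 and −1.44.

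The other genes of the pathways were described by counts, and by edgeR 0 of them passed the threshold in any comparison. Of the other neurotrophin genes and co-receptors 9 of 10 were tested, Ntf5 being too low. An unadjusted p under 0.05 by edgeR was found for 0 of the 9 for MPTP over control, beside 18.2% of all genes. It was found for 0 for MPTP+PF4 over MPTP, beside 2.01%, and for 1, Bex3, for MPTP+PF4 over control, beside 18.3%. Bex3 had a log2 fold change of −0.72 there (SE 0.291, unadjusted p = 0.0357, adjusted p = 0.268 by edgeR). For MPTP over control, Sorcs1, a sorting receptor, had a log2 fold change of 0.96 (SE 0.466) and Bex3, an adaptor that binds p75, had −0.65 (SE 0.291).

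Of the other GDNF family genes and co-receptors 7 of 10 were tested, and Gfra3, Gfral and Gdf15 were too low. Nrtn, neurturin, the preferred ligand of Gfra2, averaged 1.50 ± 0.304 CPM with MPTP and 5.30 ± 3.57 CPM in controls (SD, n = 3 each). The groups did not overlap, and the log2 fold change was −1.82 (SE 0.528, unadjusted p = 0.0075, adjusted p = 0.261 by edgeR). Nrtn was at 9.28 CPM in control 2, 4.24 CPM in control 3 and 2.38 CPM in control 1. Gfra4, the co-receptor of persephin, averaged 29.2 ± 4.06 CPM with MPTP and 54.6 ± 23.2 CPM in controls, a log2 fold change of −0.90 (SE 0.327, adjusted p = 0.261 by edgeR); it overlapped, with control 1 at 27.8 CPM. The median of the 7 tested genes was −0.40 for MPTP over control and −0.56 for MPTP+PF4 over control, with 1 of 7 positive in each. All genes tested had medians of 0.013 and −0.004 in these comparisons, and 50.9% and 49.8% of them were positive. For MPTP+PF4 over MPTP the median of the 7 was −0.02.

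Of the proteins that process proneurotrophins 8 of 9 were tested, Plg being too low. Plat, tissue plasminogen activator, which starts the cascade that cleaves proBDNF, averaged 38.2 ± 2.64 CPM with MPTP+PF4 and 27.3 ± 4.33 CPM with MPTP (SD, n = 3 each). The groups did not overlap, with a log2 fold change of 0.49 (SE 0.177, unadjusted p = 0.0232, adjusted p = 1 by edgeR). All 15 adaptors of Trk and Ret were tested, with medians of 0.16, −0.05 and 0.14 for MPTP over control, MPTP+PF4 over MPTP and MPTP+PF4 over control. Kidins220, a membrane scaffold of Trk receptors, had 0.43 (SE 0.184) for MPTP over control without overlap, and Gab1, a docking protein, −0.52 (SE 0.224).

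The 12 targets of ERK signalling and activity had medians of 0.85 for MPTP over control, 0.24 for MPTP+PF4 over MPTP and 1.13 for MPTP+PF4 over control, where all genes were near 0. In the first and the last 10 of 12 were positive, and 1 and 5 of 12 had an unadjusted p under 0.05. Among all genes tested, 50.9% and 49.8% were positive in these comparisons, and 18.2% and 18.3% had such a p. Egr1, an immediate early transcription factor, was lowest in the 3 libraries with the lowest striatal sums. It had 289, 66.4 and 365 CPM in MPTP+PF4 1 to 3, against 186, 68.4 and 253 CPM in MPTP 1 to 3 and 153, 25.6 and 31.6 CPM in controls 1 to 3. Npas4, an activity-dependent transcription factor of neurons that acts on Bdnf, averaged 5.20 ± 0.754 CPM with MPTP and 1.96 ± 0.700 CPM in controls (SD, n = 3 each). The groups did not overlap, and the log2 fold change was 1.40 (SE 0.429, unadjusted p = 0.00982, adjusted p = 0.261 by edgeR). Fos averaged 11.5 ± 1.65 CPM with MPTP+PF4 and 7.58 ± 1.50 CPM with MPTP, without overlap, a log2 fold change of 0.60 (SE 0.229, adjusted p = 1 by edgeR).

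The 15 chaperones and stress factors of the endoplasmic reticulum, beside which Manf and Cdnf work, had medians of 0.12, −0.09 and −0.08 in the same 3 comparisons. For MPTP over control 8 of the 15 were positive and 7 negative. An unadjusted p under 0.05 by edgeR was found for 3 of the 15, beside 18.2% of all genes. Ddit3, the stress transcription factor CHOP, averaged 18.3 ± 2.63 CPM with MPTP and 43.1 ± 21.8 CPM in controls, a log2 fold change of −1.23 (SE 0.363, adjusted p = 0.261 by edgeR). The groups overlapped, with control 1 at 20.8 CPM and inside the MPTP range. Atf4, an upstream factor, averaged 93.2 ± 7.62 CPM with MPTP and 129.8 ± 19.9 CPM in controls, without overlap (−0.48, SE 0.189, adjusted p = 0.265 by edgeR). Among 16 other neurotrophic ligands and receptors, Igf1 had 4.90 ± 0.823 CPM with MPTP and 18.8 ± 12.5 CPM in controls (−1.94, SE 0.591, adjusted p = 0.261 by edgeR), with control 1 at 5.61 CPM and inside the MPTP range. Lifr, a receptor of the CNTF and LIF family, had 56.2 ± 1.56 CPM with MPTP+PF4 and 41.6 ± 5.31 CPM with MPTP, without overlap (0.43, SE 0.145, adjusted p = 1 by edgeR).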

How the data were processed

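Whole-tissue RNA of 9 mice was measured with 1 library per mouse, separate animals per the series design. A single deposited table holds, per the file headers, read counts and FPKM for each gene in each library; FPKM is the authors' scaling for length and library size. The same deposited table gives the authors' calls in words (up, down or normal) for each pair of groups; the p and fold columns beside them were left aside. The submitters' processing notes name mm9; aligner, counter and strand setting are not given in the sources used here. Positions come from the GENCODE annotation of GRCm38 and start windows from RefSeq; nothing was converted between builds. Of 29001 lines 10 with broken fields were left out; 6955 loci without a known gene held 0.983% to 1.225% of a library's counts.

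All 9 libraries entered 1 fit on group in R 4.3.3, by the robust quasi-likelihood method of edgeR 4.0.16 on the counts, with TMM scaling and filterByExpr, and p was adjusted by Benjamini-Hochberg over all 17285 genes tested. CPM uses TMM-scaled totals. The common biological coefficient of variation was 0.394. DESeq2 1.42.0, limma 3.58.1 on log2(FPKM + 0.1), other scalings and filters and each library left out in turn were alternatives. The fits were tested on simulated data. No libraries agreed within sampling noise (lowest chi-square per degree of freedom 30.0). The first principal component held 54.3% of the variance, with controls 2 and 3 and MPTP+PF4 2 at positive scores and the other 6 libraries at negative ones.

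The text names the 10 members, up to 2 genes per pathway list and comparison with the smallest unadjusted p, untested family genes, markers beside the results they move with, and up to 2 genes with the most similar profile per member. Egr1, Hcrt, Fgf2 and Ntf3, from the same lists, were named after their values were seen. Some items of these lists are not reported here. Members and lists were chosen with earlier results of these data known. Of the 2 identifiers of Ddit3, 1 was at 0 in all libraries and was not used.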

Additional observations from a re-analysis of the deposited data

How the results depend on the processing

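In the count of genes past the threshold, edgeR gave 0 in each comparison. With DESeq2 it was 280 for MPTP over control (48 higher, 232 lower), 17 for MPTP+PF4 over MPTP and 9 for MPTP+PF4 over control. Without control 1 and MPTP+PF4 2 it was 5629 for MPTP over control and 5980 for MPTP+PF4 over control, and without control 2, control 3 and MPTP+PF4 2 it was 1 in each of these. Leaving out 1 library at a time gave 0 to 4577 for MPTP over control, 0 to 4539 for MPTP+PF4 over control and 0 for MPTP+PF4 over MPTP; the 4577 and 4539 came without control 1, and every other omission gave 0. Causes were not tested beyond these omissions.

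For the members, 30 log2 fold changes were recomputed under 19 alternatives: 510 of 570 kept their direction and their side of the threshold, 46 turned direction, 14 passed the threshold and 0 lost it. Of the 46, 41 had a value within 1 SE of 0 with all libraries. The 14 were all without control 1, alone or with MPTP+PF4 2. Log2 values that turned follow. Leaving out 1 library at a time, MPTP over control ranged from −0.11 to 0.21 for Gfra1, −0.16 to 0.48 for Gfra2 and −0.48 to 4.42 for Ngfr. MPTP+PF4 over MPTP ranged from −0.35 to 1.64 for Bdnf, −0.84 to 0.50 for Gdnf, −0.11 to 0.10 for Manf, −1.62 to 0.48 for Ngfr, −0.30 to 0.26 for Ntrk3 and −1.41 to 1.24 for Ret. MPTP+PF4 over control ranged from −1.02 to 0.97 for Bdnf and −0.53 to 3.32 for Ngfr.

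Without control 1 and MPTP+PF4 2, MPTP over control was −0.0004 for Gfra1 and −0.0688 for Gfra2, MPTP+PF4 over MPTP was −0.36 for Bdnf, 0.43 for Gdnf, −0.13 for Manf and −1.44 for Ret, and MPTP+PF4 over control was −1.30 for Bdnf. Without control 2, control 3 and MPTP+PF4 2, MPTP over control was 0.28 for Bdnf, −0.36 for Ngfr and 0.21 for Ret. MPTP+PF4 over MPTP was then −0.35 for Bdnf, 0.45 for Gdnf, −0.11 for Manf and −1.41 for Ret, and MPTP+PF4 over control −0.0719 for Bdnf, 0.057 for Gfra1 and −1.08 for Ngfr. With library totals alone, MPTP+PF4 over MPTP was −0.0617 for Manf and −0.0618 for Ntrk3, and MPTP+PF4 over control −0.0373 for Ngfr. With limma on log2(FPKM + 0.1), MPTP+PF4 over MPTP was −0.0529 for Manf, −0.12 for Ntrk3 and −0.19 for Ret, and MPTP+PF4 over control −0.32 for Bdnf.

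Same-numbered deviations correlated across genes at 0.087, 0.519 and 0.457 for MPTP+PF4 and MPTP. The values were 0.13, 0.174 and −0.122 for MPTP and control, and 0.158, 0.389 and −0.291 for MPTP+PF4 and control. Differently numbered libraries were not compared, so these values cannot tell whether replicate numbers pair the libraries. With the replicate block, 0 genes passed in each comparison (3922, 340 and 3859 at an unadjusted p under 0.05 for MPTP over control, MPTP+PF4 over MPTP and MPTP+PF4 over control), MPTP+PF4 over MPTP was −0.0306 for Ntrk3 and −0.13 for Ret, and MPTP+PF4 over control −0.14 for Bdnf. With 3 mice a group and SEs above 0.8 for Bdnf, Gdnf, Ngfr and Ret, only large changes in them could have passed the test. Low power was not limited to these 4. In counts simulated with the estimated dispersions, MPTP over control recovered 8% of 2-fold and 73% of 4-fold changes. The lack of calls therefore does not show that the other members were unchanged.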

Other observations

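Fgf2, a growth factor with neurotrophic actions, was at 0.335 CPM in MPTP 3 and at 8.22 to 14.4 CPM in the other 8 libraries; it was chosen after its values were seen. Ntf3, the ligand of TrkC, also chosen after its values were seen, had 1.17, 1.58 and 0 CPM in MPTP+PF4 1 to 3, against 3.60, 0.328 and 0.122 CPM in MPTP 1 to 3 and 0.280, 3.58 and 4.68 CPM in controls 1 to 3. Met, the receptor of hepatocyte growth factor, had 1.41, 2.12 and 1.37 CPM in MPTP+PF4 1 to 3, against 16.9, 3.04 and 2.40 CPM in MPTP 1 to 3, without overlap (log2 fold change −2.19, SE 0.766, adjusted p = 1 by edgeR).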
